A study of Drosophila melanogaster with 4 samples.

Results

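Oocytes of Drosophila melanogaster pause in meiosis inside the ovary, mature late in oogenesis, and resume and finish meiosis at egg activation, when the egg passes through the oviduct. The genes described here carry out that passage, and they were chosen by name: png, plu and gnu, which form the PNG kinase, cort, smg, wisp, twe, CycB and CycB3. All 9 were found, as 23 RefSeq transcript rows, among 16356 named genes, and all 9 passed the filter on low counts that left 10191 tested features.

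Poly(A)-enriched RNA was sequenced from ovaries of adult flies: 2 libraries in which Nup358, a nuclear pore protein, was knocked down in germline cells (Nup358GLKD) and 2 Control libraries (the cross labelled mat>Luc), each from 10 to 15 pairs of ovaries. The labels give neither the age of the flies, nor the driver behind "mat", nor the knockdown construct. The libraries held 58876800 and 60707552 expected counts in Nup358GLKD replicates 1 and 2, and 60792292 and 59410221 in Control replicates 1 and 2. The labels call the replicates biological repeats without saying whether flies were collected separately, and the p-values can reflect no more than the differences among these 4 libraries, which may be technical. Levels are CPM, counts scaled to library size, with TMM factors. All adjusted p-values come from edgeR's quasi-likelihood test with Benjamini-Hochberg adjustment over all tested features, with 0.05 as threshold, unless another tool or fit is named.

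As background, Cyclin B and Cyclin B3 bind Cdk1 and drive the meiotic divisions, and the Cdc25 phosphatase Twine (twe) switches Cdk1 on. Cortex (cort) is a female-meiosis relative of Cdc20 that directs the anaphase-promoting complex to the cyclins. At activation the PNG kinase releases the translation of many maternal mRNAs. One of them is that of Smaug (smg), an RNA-binding protein that clears maternal mRNAs, while Wispy (wisp), a cytoplasmic poly(A) polymerase, lengthens poly(A) tails. Much of this control acts on translation and protein stability, which RNA levels do not measure.

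Nup358 RNA itself had 282.7 and 151.3 CPM in Nup358GLKD libraries, against 662.2 and 624.3 CPM in Control libraries (log2 change −1.57, SE 0.34, adjusted p = 0.0524). It passed in DESeq2 (adjusted p = 0.000171), in limma-voom (0.0464) and in edgeR with total counts (0.0418), over a range of 8.56e-05 to 0.939 in all alternative fits. The replicate with the stronger reduction was replicate 2. The Nup358GLKD libraries differed from each other far more than the Control libraries did, the SD of the log2 difference between replicates over 10191 features being 0.668 in Nup358GLKD and 0.193 in Control. Marker lists moved with replicate as well. The 15 eggshell genes of late-stage follicle cells summed to 8367 and 29020 CPM in Nup358GLKD replicates 1 and 2 and to 28900 and 28930 CPM in Control replicates, and all 15 lay below the Control mean in replicate 1 and 6 of 15 in replicate 2. The 8 muscle sheath genes summed to 1468 and 307.4 CPM in Nup358GLKD replicates 1 and 2, against 322.6 and 255.7 CPM in Control. The 14 germline genes summed to 5913 and 6809 CPM in Nup358GLKD and 5926 and 5985 CPM in Control. They were not alike. Both Nup358GLKD libraries lay above both Control libraries for 5 of 14 and below them for 4, beside 37.9% and 39.8% of tested features. The 10 follicle cell genes summed to 13030 and 9839 CPM in Nup358GLKD and 8636 and 7746 CPM in Control. Yp1 and Yp2 made up most of this sum. Of the 10, 8 lay above Control in this way and 1 below. That 1 was Yp3, with 338 and 542 CPM in Nup358GLKD and 1280 and 1260 CPM in Control (adjusted p = 0.0401). No gene of these 4 lists was at 0 in all libraries, and of 9 testis genes nht and Mst84Da were at 0 in all of them and mia, the only one that passed the filter, had 2.68 and 1.94 CPM in Nup358GLKD libraries, against 3.56 and 3.72 CPM in Control libraries. In bulk ovaries, fewer cells of a type and less RNA per cell cannot be told apart, and the part of these marker differences in the results that follow was not tested.

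cort, plu, png and twe were the members furthest below Control, and both Nup358GLKD libraries lay below both Control libraries for each of them. smg and CycB3 lay below Control by less, gnu and CycB lay on both sides of it, and wisp lay above it. In edgeR's test 0 of 9 passed, beside 18.6% of all tested features called (9.59% higher and 9.03% lower). cort, png and smg had an unadjusted p under 0.05 (3 of 9 lower and 0 higher, beside 22.0% of tested features lower at that level). DESeq2 called 4 of 9 lower (cort, png, plu and smg) and 0 higher, beside 38.1% of features called (18.8% higher and 19.3% lower). limma-voom called 0 of 9, beside 21.3% of features called (10.1% higher and 11.2% lower). Both Nup358GLKD libraries lay below both Control libraries for 6 of 9 members, beside 39.8% of tested features, and above them for 1 of 9, beside 37.9%. The median log2 change of the 9 was −0.77, and that of all tested features 0.01.

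**Figure D1:**
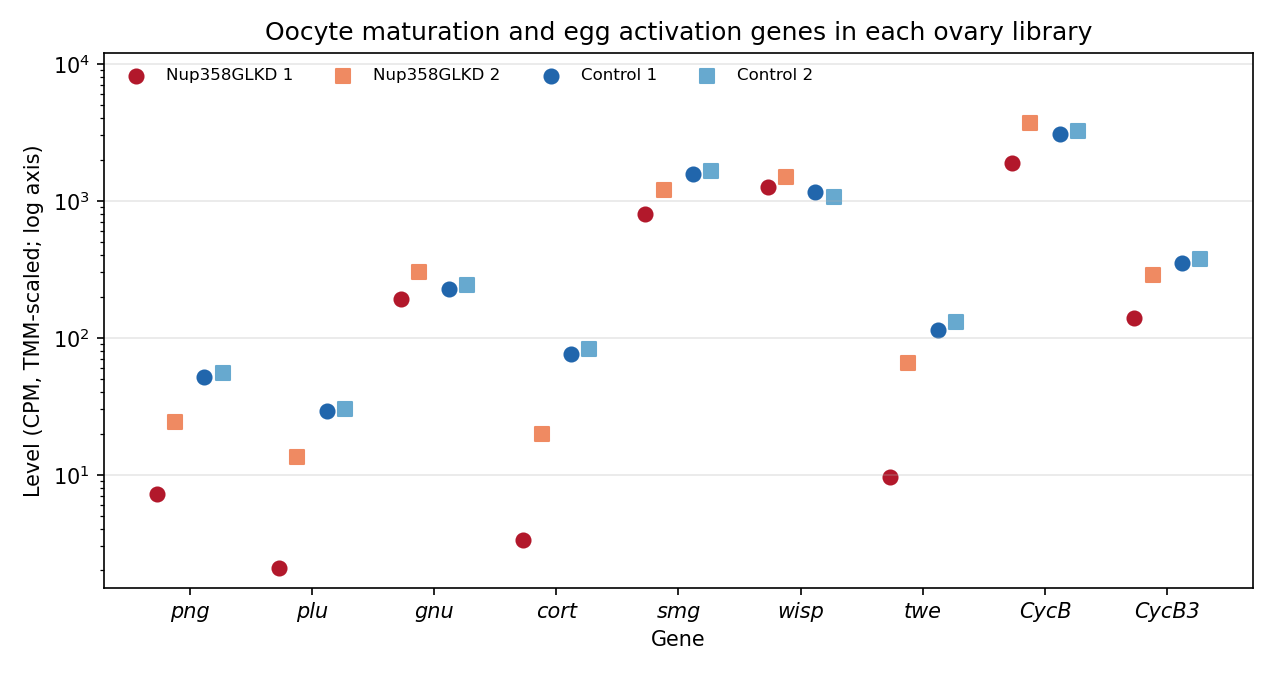
Level of each of the 9 genes in CPM on a log axis, 1 point per library, with Nup358GLKD replicates in red and orange and Control replicates in blues. The Control points of a gene nearly coincide, while the Nup358GLKD points of cort (3.34 and 19.9 CPM), plu (2.09 and 13.5 CPM) and twe (9.62 and 64.9 CPM) lie far apart, and both lie below Control.

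The PNG kinase needs its catalytic subunit, encoded by png, and 2 activating subunits, encoded by plu and gnu. png (X) had 7.24 and 24.3 CPM in Nup358GLKD libraries, against 51.8 and 55.3 CPM in Control libraries. Both knockdown values were under the lowest Control value, replicate 1 by far the most. The means were 15.8 ± 12.1 CPM in Nup358GLKD and 53.5 ± 2.44 CPM in Control (SD, n = 2 each), or 3.39-fold lower in the knockdown (log2 change −1.76, SE 0.62, adjusted p = 0.108). plu (2R), which encodes a small ankyrin-repeat protein, had 2.09 and 13.5 CPM in Nup358GLKD libraries, against 29.2 and 30.3 CPM in Control libraries. It followed the order of png, with replicate 1 lowest (means 7.81 ± 8.1 CPM in Nup358GLKD and 29.7 ± 0.796 CPM in Control, SD, n = 2 each, log2 change −1.92, SE 0.91, adjusted p = 0.175). gnu (3L) did not share this pattern. It had 190.4 and 303.5 CPM in Nup358GLKD libraries, against 228.4 and 243.5 CPM in Control libraries, so the Control values lay between the knockdown values (log2 change 0.07, SE 0.26, adjusted p = 0.852). Its sign turned with total counts (−0.02) and germline-list factors (−0.06).

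The subunit mRNAs therefore stood in other proportions to each other. Levels of different genes were compared per length, as CPM per kb of the longest annotated transcript. png and plu had 48.1 ± 2.19 and 48.3 ± 1.29 CPM per kb in Control (SD, n = 2 each), a difference within their spread. gnu stood at 31.7 and 15.1 times png in Nup358GLKD replicates 1 and 2, against 5.32 times in each Control replicate, and the groups did not overlap. plu stood at 0.521 and 1.01 times png in Nup358GLKD replicates 1 and 2, against 1.02 and 0.991 times in Control replicates, so the pair was out of its Control proportion in replicate 1 only. With 2 libraries in each group an exact test of such a ratio cannot pass 0.05, and none is given.

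cort (2L), whose product targets the meiotic cyclins for destruction, was the member lowest relative to Control in both knockdown libraries. It had 3.34 and 19.9 CPM in Nup358GLKD libraries, against 75.8 and 82.5 CPM in Control libraries, or 4.22% and 25.1% of the Control mean. Neither knockdown value came near Control. Of all tested features, 0.0294% lay lower than cort relative to the Control mean in replicate 1 and 0.618% in replicate 2. The means were 11.6 ± 11.7 CPM in Nup358GLKD and 79.2 ± 4.74 CPM in Control (SD, n = 2 each), or 6.82-fold lower in the knockdown (log2 change −2.77, SE 0.91, adjusted p = 0.095). The adjusted p was 0.000976 in DESeq2 and 0.054 in limma-voom, and ranged between 6.62e-05 and 0.632 over the alternative fits. The annotated end of cort overlaps cup and CG34310 by 99 bases on the opposite strand, and the strand setting of the counting is not given, so cort reads in that stretch cannot be told apart from reads of these more abundant genes. cup had 325.9 and 415.3 CPM in Nup358GLKD libraries, against 440.1 and 417.6 CPM in Control libraries.

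Its mitotic relative fzy, the general Cdc20, had 29.3 and 114.6 CPM in Nup358GLKD libraries, against 129.9 and 141.3 CPM in Control libraries (log2 change −0.91, SE 0.69, adjusted p = 0.342). In replicate 2 fzy was at 84.5% of the Control mean while cort was at 25.1%. Per kb, cort stood at 0.138 and 0.209 times fzy in Nup358GLKD libraries, against 0.704 times in each Control library. Both knockdown values were below Control, and they differed from each other more than the Control values did. Set against fzr, the Cdh1-type activator of the same complex, cort stood at 0.0937 and 0.546 times in Nup358GLKD libraries, against 1.80 and 1.91 times in Control libraries, which was also below Control in both but split widely between the knockdown replicates.

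twe (2L), the Cdc25 of meiosis, had 9.62 and 64.9 CPM in Nup358GLKD libraries, against 113.8 and 129.5 CPM in Control libraries. Both knockdown values lay below Control, and they differed 6.75-fold from each other, the widest split of the 9 genes. The means were 37.3 ± 39.1 CPM in Nup358GLKD and 121.6 ± 11.1 CPM in Control (SD, n = 2 each, log2 change −1.71, SE 0.94, adjusted p = 0.222). The Cdc25 of mitotic cycles, stg, fell to 126.1 and 201.3 CPM in Nup358GLKD libraries, against 419.6 and 440.4 CPM in Control libraries (log2 change −1.39, SE 0.26, adjusted p = 0.043). Per kb, twe stood at 0.0881 and 0.372 times stg in Nup358GLKD libraries, against 0.313 and 0.339 times in Control libraries, so this ratio lay below both Control values in replicate 1 and above both in replicate 2. The annotated twe gene overlaps EndoGI, on the opposite strand, by 98 bases.

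**Figure D2:**
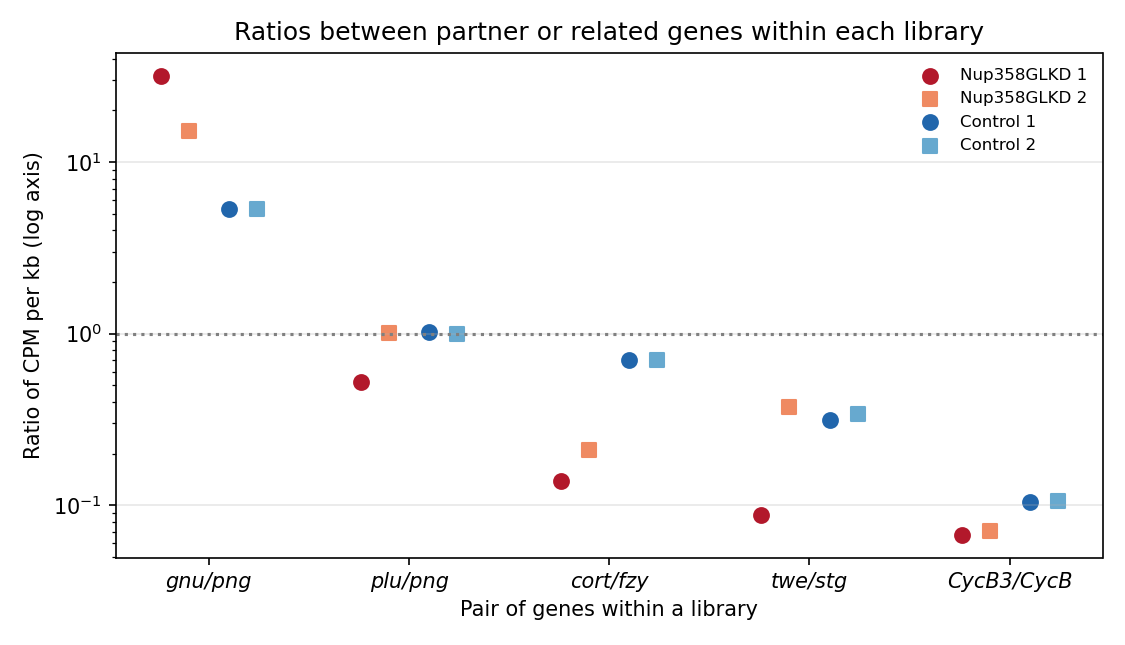
Ratio of CPM per kb between partner or related genes within each library, on a log axis, with Nup358GLKD replicates in red and orange and Control replicates in blues. gnu over png is higher in both Nup358GLKD libraries (31.7 and 15.1) than in both Control libraries (5.32 each), cort over fzy and CycB3 over CycB are lower in both, and twe over stg is below Control in replicate 1 (0.0881) and above it in replicate 2 (0.372). CycB3 is the sum of 2 transcript rows, 1 of them at 0 counts in both Nup358GLKD libraries.

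As counts summed per gene, the B-type cyclins lay differently against Control, and the difference between their changes was not tested. CycB (2R), the most abundant member per length, had 1875 and 3701 CPM in Nup358GLKD libraries, against 3062 and 3224 CPM in Control libraries. The Control values lay between the knockdown values, at 59.7% and 118% of the Control mean (log2 change −0.17, SE 0.37, adjusted p = 0.73, and 0.68 on the log2 scale with eggshell-list factors, which put the median feature at 0.87). CycB3 (3R), which is needed for anaphase of female meiosis, had 138.3 and 287.7 CPM in Nup358GLKD libraries, against 349.8 and 374.9 CPM in Control libraries. Both knockdown values were below Control, with a log2 change of 0.01 under eggshell-list factors, which moved the median of all features to 0.87 (means 213 ± 106 CPM in Nup358GLKD and 362.3 ± 17.7 CPM in Control, SD, n = 2 each, log2 change −0.77, SE 0.39, adjusted p = 0.193). Per kb, CycB3 stood at 0.0674 and 0.071 times CycB in Nup358GLKD libraries, against 0.104 and 0.106 times in Control libraries. The knockdown replicates were close in this ratio although their cyclin levels differed about as 1.97 to 1 for CycB and 2.08 to 1 for CycB3. Of the 2 CycB3 transcript rows in this sum, 1 had 0 counts in both Nup358GLKD libraries, as given below. The other had 138 and 288 CPM in Nup358GLKD libraries, against 251 and 255 CPM in Control libraries. Like CycB, that row lay below Control in replicate 1 and above it in replicate 2. The row at 0 added to CycB3 in the Control libraries only, so it widened the gap in the ratio. How much of the gap it makes up was not tested.

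Among the mRNA regulators, smg (3L) had 805.1 and 1194 CPM in Nup358GLKD libraries, against 1581 and 1643 CPM in Control libraries. It was below Control in both, at 49.9% and 74.1% of the Control mean, with a log2 change of 0.27 under eggshell-list factors, again below the median feature at 0.87. The means were 999.8 ± 275 CPM in Nup358GLKD and 1612 ± 44.2 CPM in Control (SD, n = 2 each, log2 change −0.69, SE 0.23, adjusted p = 0.101). wisp (X) had 1260 and 1494 CPM in Nup358GLKD libraries, against 1156 and 1068 CPM in Control libraries. It was the only one of the 9 with both knockdown values above both Control values, by a small margin in replicate 1 that vanished with total-count scaling, where the groups overlapped (log2 change 0.31, SE 0.15, adjusted p = 0.182). The adjusted p of png, plu and smg was 0.00787, 0.0354 and 0.0342 in DESeq2, and over the alternative fits it ranged from 7e-05 to 0.798 for png, from 6.65e-05 to 0.795 for plu and from 0.000114 to 0.949 for smg.

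Each knockdown replicate was also set against Control alone. The order of the 9 genes by their percent of the Control mean was similar in both: cort was lowest and wisp highest in each, and png, plu, twe and cort were the 4 lowest in each. In replicate 1 these 4 held 4.22% to 13.5% of the Control mean and in replicate 2 they held 25.1% to 53.4%. The eggshell list had a median of 27.5% of the Control mean in replicate 1 and 114% in replicate 2. The germline list had medians of 98.5% and 108%, with 8 and 6 of its 14 genes below the Control mean. The eggshell genes were not alike in replicate 2: of 2 chorion genes picked after their values were seen, Cp7Fc had 302 CPM, against 710 and 704 CPM in Control libraries, and Cp15 had 3310 CPM, against 3090 and 2590 CPM. Fitted without Nup358GLKD replicate 1, all 9 members passed, 6 lower and 3 higher (gnu, wisp and CycB), beside 62.3% of features called (33.0% lower and 29.3% higher), and the log2 change of cort was −2.00, of png −1.14, of plu −1.14, of twe −0.91 and of CycB 0.23. Fitted without Nup358GLKD replicate 2, 8 of 9 passed, all lower, and wisp did not, beside 75.5% of features called (39.7% lower and 35.7% higher), and the log2 change of cort was −4.59, of png −2.91, of plu −3.86, of twe −3.69 and of CycB −0.77. These fits compare 1 knockdown library with Control and assume that it varies as Control does. Without Control replicate 1 or without Control replicate 2, 0 of 9 passed (1 lower and 0 higher at an unadjusted p under 0.05 in each fit) and 0 features were called (815 and 723 features were lower and 902 and 827 higher at an unadjusted p under 0.05).

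**Figure D3:**
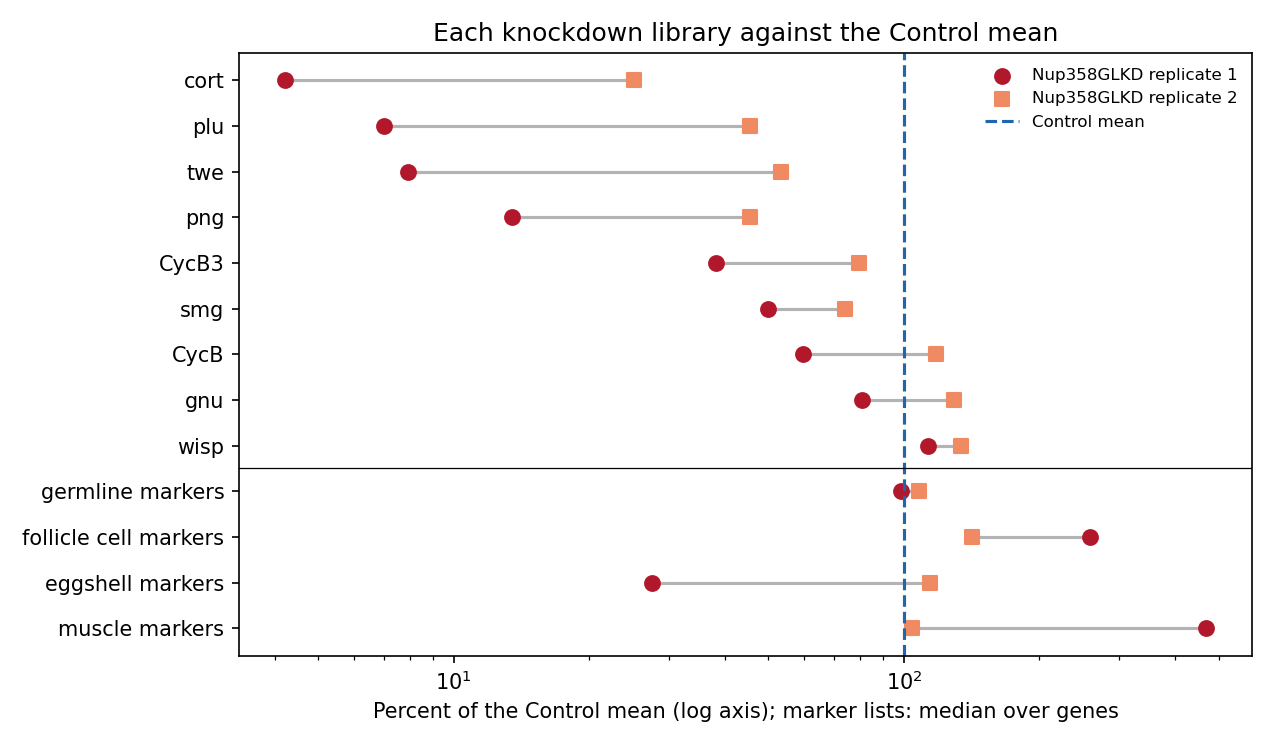
Each Nup358GLKD replicate as a percent of the Control mean on a log axis, for the 9 genes ordered by replicate 1 and, below the line, for the median gene of 4 marker lists. cort, plu, twe and png lie furthest left in both replicates, while the eggshell list lies at 27.5% in replicate 1 and 114% in replicate 2.

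In Control ovaries the order of levels per length ran from CycB (1194 ± 43.5 CPM per kb, SD, n = 2) through smg (327.2 ± 8.96), gnu (255.6 ± 11.5), wisp (209 ± 11.6) and CycB3 (125.7 ± 6.14) to twe (51.1 ± 4.68), plu (48.3 ± 1.29), png (48.1 ± 2.19) and cort (47.8 ± 2.87). The last 4 did not differ from each other beyond the spread between Control libraries, and every other pair of neighbours in this order did. That spread leaves out error in comparing different genes, such as the choice of the longest transcript, so it does not test the order. These last 4 were also the members furthest below Control in the knockdown. In Nup358GLKD replicate 2, gnu (328.8 CPM per kb) and wisp (280.7) stood above smg (242.4), and cort (12.0) stood apart below png (21.8), plu (21.99) and twe (27.3).

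RSEM divided the counts of 6 of the 9 genes among several RefSeq transcripts, and the largest difference in division was in CycB3. Its row NM_143046 had 0 counts in both Nup358GLKD libraries, against 6188.1 and 7351.1 counts in Control libraries, and NM_001276005 had 7695 and 17312 counts in Nup358GLKD libraries, against 15727 and 15706 in Control libraries. NM_143046 thus held 0% of the gene's counts in both Nup358GLKD libraries and 30.1% ± 2.6 in Control (SD, n = 2). The level that RSEM assigned to it was at least 2020-fold lower in the knockdown against the floor of 3 counts per library. That limit covers counting error only, and not error in the division of reads between the 2 rows. Without summing per gene, edgeR gave this row an adjusted p = 0.0546 over 20393 rows, and the other row an adjusted p = 0.595. In the BDGP6 annotation, another build than the authors' dm3, the CycB3 transcripts have the same coding length of 1725 bases and the same 5′ end. They end at different 3′ positions, and the longest and shortest differ by 422 bases in length. Whether the shorter lies wholly within the longer was not checked. The division between them is an estimate, and the sources used here do not say which accession is the longer. NM_001276005 had 138 and 288 CPM in Nup358GLKD libraries, against 251 and 255 CPM in Control libraries, so it lay below Control in replicate 1 and above it in replicate 2.

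twe, smg and CycB showed smaller differences between group means. NM_001273562 held 21.4% and 58.7% of twe counts in Nup358GLKD replicates 1 and 2, against 49.8% and 52.5% in Control. Its share thus lay below both Control shares in replicate 1, where it had 114.4 counts, and above both in replicate 2. NM_168310 held 4.58% and 3.67% of smg counts in Nup358GLKD, against 1.62% and 1.53% in Control. It was the only smg row above Control in both knockdown libraries, at 36.8 and 43.9 CPM in Nup358GLKD and 25.6 and 25.1 CPM in Control (unsummed edgeR adjusted p = 0.104). The main CycB row NM_166555 held 89.1% and 91.3% of CycB counts in Nup358GLKD, against 93.7% and 93.5% in Control. The shares of cort and wisp transcripts overlapped between groups, and png, plu and gnu have 1 row each.

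**Figure D4:**
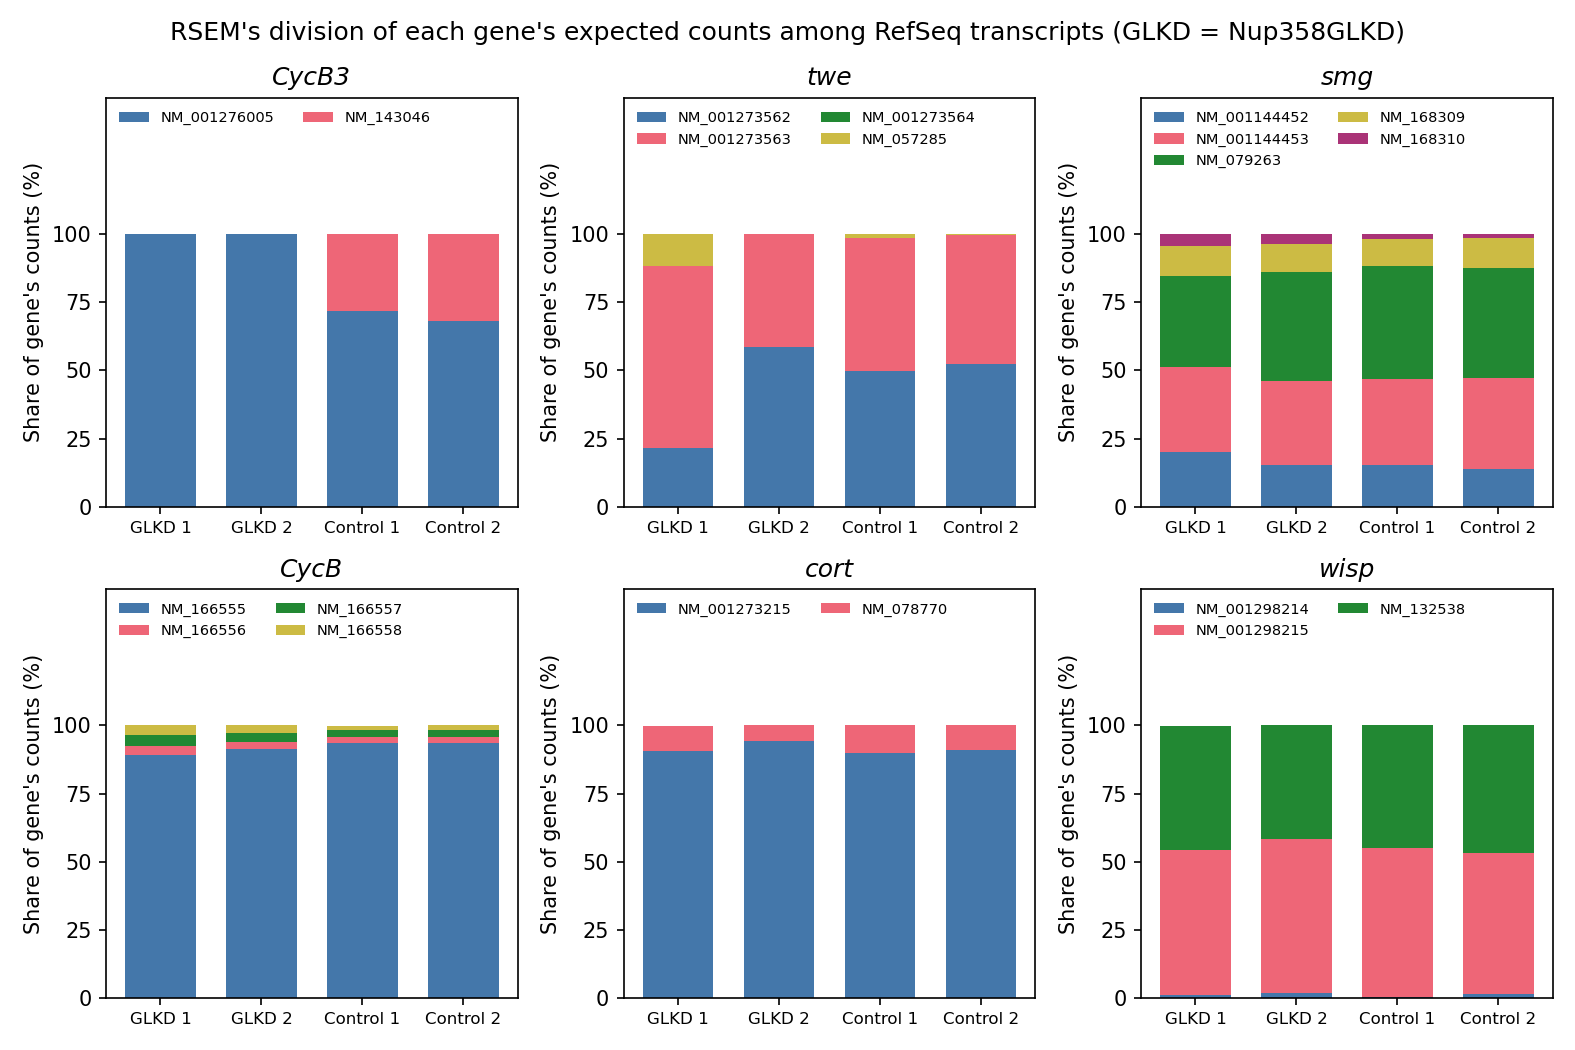
Share of a gene's expected counts that RSEM gave to each RefSeq transcript, as stacked bars per library for the 6 genes with more than 1 transcript row (GLKD stands for Nup358GLKD). The CycB3 row NM_143046 is absent from both Nup358GLKD bars and makes up 28.2% and 31.9% of the Control bars.

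Other genes of maturation and activation were taken from lists by role. Of 73 genes tested, 2 rose, 4 fell and 67 did not pass, beside the 9.59% of features called higher and 9.03% called lower given above. DESeq2 called 23 lower and 2 higher, beside 19.3% of features lower and 18.8% higher. Their median log2 change was −0.42, and both knockdown libraries lay below both Control libraries for 45 genes and above them for 12, beside 39.8% and 37.9% of features. The lists were not alike.

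Among 20 genes of Cdk control in maturation, stg alone fell and 0 rose, beside 9.03% of features lower and 9.59% higher, and the list median was −0.49. polo, a kinase of the meiotic divisions, had 342.9 and 594.3 CPM in Nup358GLKD libraries, against 729.6 and 742.4 CPM in Control libraries (log2 change −0.65, SE 0.30, adjusted p = 0.168). Cdk1 (log2 change −0.48, adjusted p = 0.32) and endos, an inhibitor of the phosphatase PP2A (log2 change −0.48, adjusted p = 0.168), did not pass. Mos, chosen after its values were seen, a kinase of the oocyte MAP kinase pathway, had 17.4 and 52.3 CPM in Nup358GLKD libraries, against 126.4 and 130.9 CPM in Control libraries, which was below Control in both (log2 change −1.89, SE 0.58, adjusted p = 0.0847).

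Of 12 genes of the anaphase-promoting complex and its E2 enzymes, which act with cort, 2 fell and 0 rose, with a list median of −0.81. Of all features, 9.03% were called lower and 9.59% higher. The subunit gene mr (APC2) fell to 30.95 and 41.3 CPM in Nup358GLKD libraries, against 78.1 and 80.8 CPM in Control libraries (log2 change −1.14, SE 0.18, adjusted p = 0.0374). The subunit gene ida (APC5) fell to 14.7 and 20.3 CPM in Nup358GLKD libraries, against 35.9 and 36.55 CPM in Control libraries (log2 change −1.05, SE 0.20, adjusted p = 0.0443, and 0.0508 without a filter). Both knockdown libraries lay below Control for 8 of 12, beside 39.8% of features, while Cdc27 had 160.4 and 163.7 CPM in Nup358GLKD and 161.8 and 166.6 CPM in Control.

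The calcium and calcineurin genes, which act upstream at egg activation, had 0 of 10 passing (beside 18.6% of features) and a list median of 0.05. At an unadjusted p under 0.05 there was 1, beside 45.2% of features. DESeq2 called 1 of them lower, beside 19.3% of features. sra, the calcineurin regulator sarah, had 61.2 and 85.3 CPM in Nup358GLKD libraries, against 65.9 and 75.6 CPM in Control libraries, which overlap (log2 change 0.05, SE 0.21, adjusted p = 0.857, with a sign that turned under total counts at −0.04 and germline-list factors at −0.06).

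Among 16 genes of maternal mRNA translation control and decay, 2 rose and 1 fell, beside 9.59% of features higher and 9.03% lower, and the list median was 0.10. orb, which activates translation of oocyte mRNAs, rose to 2131 and 1685 CPM in Nup358GLKD libraries, against 716.3 and 702.1 CPM in Control libraries (log2 change 1.43, SE 0.17, adjusted p = 0.0292). bru1, a translational repressor, rose to 2447 and 2106 CPM in Nup358GLKD libraries, against 1061 and 1080 CPM in Control libraries (log2 change 1.09, SE 0.14, adjusted p = 0.031). tral, a partner of the repressor complex of me31B and cup, fell to 2080 and 2130 CPM in Nup358GLKD libraries, against 4118 and 3599 CPM in Control libraries (log2 change −0.87, SE 0.15, adjusted p = 0.0383), a call that was lost with the mean of at least 5 CPM (0.058), upper-quartile factors (0.0528) and germline-list factors (0.0663). bru1 was also lost with germline-list factors (0.067).

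Of the 7 genes of the CTLH ubiquitin ligase and its E2 enzyme, which remove maternal repressor proteins after activation, 0 passed, 4 had an unadjusted p under 0.05 (beside 45.2% of features) and DESeq2 called 4 lower (beside 19.3% of features), with a list median of −0.46. Of the 8 maternally supplied genes of the egg and early embryo, 0 passed and 4 had an unadjusted p under 0.05, again beside 45.2% of features. DESeq2 called 6 of these 8 lower, beside 19.3% of features, and both knockdown libraries lay below both Control libraries for 7, beside 39.8% of features (list median −1.05). Klp3A, a kinesin of the meiotic spindle that was chosen after its values were seen, had 39.3 and 80.0 CPM in Nup358GLKD libraries, against 192.6 and 203.9 CPM in Control libraries (log2 change −1.73, SE 0.38, adjusted p = 0.0533). Without Control replicate 1, and likewise without Control replicate 2, edgeR called none of stg, mr, ida, tral, orb and bru1 (adjusted p from 0.278 to 0.356) and 0 of the 73 (7 and 7 lower and 1 and 2 higher at an unadjusted p under 0.05). All 6 were also lost with eggshell-list factors. Without Nup358GLKD replicate 1, 40 of the 73 passed as lower and 9 as higher, beside 33.0% and 29.3% of features. Without Nup358GLKD replicate 2, 48 passed as lower and 13 as higher, beside 39.7% and 35.7% of features.

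**Figure D5:**
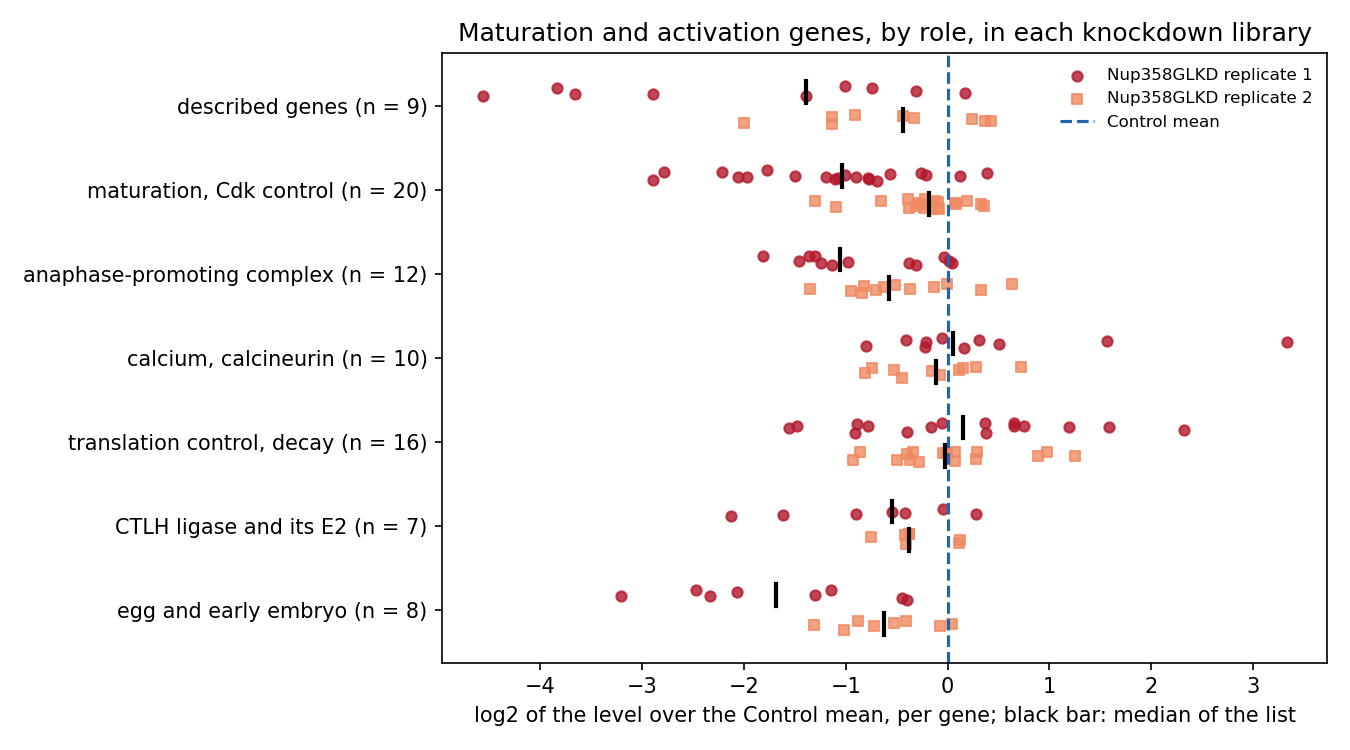
log2 of each gene's level over the Control mean in Nup358GLKD replicates 1 and 2, for the 9 genes and the other genes by role, with black bars at list medians. The egg and early embryo list and the 9 genes lie furthest below Control in replicate 1 (medians −1.67 and −1.39 with 0.5 CPM added, and no addition in the plotted points), the calcium and calcineurin list lies near it, and replicate 2 lies nearer to Control than replicate 1 for most lists.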

How the data were processed

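The deposited table holds expected counts per RefSeq transcript, transposon family or piRNA cluster, per the file headers, not scaled for depth or length. Per the submitters' processing notes, the tools were RSEM and Bowtie2 and the build dm3; for versions, annotation release, strand setting and filters, the sources used here say nothing. RSEM divides reads among similar transcripts. Rows were named with the NCBI RefSeq gene table (assembly Release 6, names and chromosome arms only), which matched 34035 of 34437 RefSeq rows (98.8%), summed per gene and rounded. 10 listed names were matched through aliases. Transcript lengths and overlaps come from the Ensembl BDGP6 annotation and the Release 6 table.

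edgeR 4.0.16 (TMM, glmQLFTest after a robust glmQLFit, legacy=FALSE, filterByExpr with minimum count 10 and minimum total 15) in R 4.3.3 was fitted to all 10191 features. Standard errors come from the F statistic. DESeq2 1.42.0 and limma 3.58.1 (voom), other scalings and filters, unsummed rows, each library left out in turn and a block on replicate number were alternatives, and eggshell-list factors were added after seeing the data. 3 counts per library serve as the floor for a count of 0, about 0.05 CPM. Percents of the Control mean use CPM with no pseudocount, except that list medians and percentiles among features add 0.5 CPM. The genes, lists and tests were chosen with earlier results of these data known. Named list genes were up to 3 passing per list and direction, with polo, Cdk1, fzy, endos and sra always given. Chi-square per degree of freedom between replicates was 394 in Nup358GLKD and 17.0 in Control, above counting noise, so each library counted as 1 sample. The code was tested on simulated data.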

Additional observations from a re-analysis of the deposited data

How the results depend on the processing

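Of the 9 genes, 0 passed as lower or higher in edgeR with RLE, total-count, upper-quartile, germline-list or eggshell-list factors, a minimum mean of 5 CPM, a replicate block, legacy=TRUE or without a filter, nor in limma-voom or as unsummed transcript rows. DESeq2 called 4 lower. Leaving out 1 library gave 0 to 8 lower and 0 to 3 higher. The other 73 genes, with 4 lower and 2 higher, gave lower and higher counts of 16 and 1 with germline-list factors, 0 and 0 with eggshell-list factors (0 and 1 at an unadjusted p under 0.05), 23 and 2 in DESeq2, 7 and 2 in limma-voom, and 0 and 0 of 204 unsummed rows (38 and 27 at an unadjusted p under 0.05); leaving out 1 library gave 0 to 48 lower and 0 to 13 higher. All features, with 920 lower and 977 higher, gave 1613 and 613 with germline-list factors, 0 and 0 with eggshell-list factors (26 and 702 at an unadjusted p under 0.05), 1964 and 1916 in DESeq2, 1 and 0 as unsummed rows, and 607 lower at a mean of at least 5 CPM; leaving out 1 library gave 0 to 4218 lower and 0 to 3789 higher. Eggshell-list factors moved the median log2 change of all features to 0.87, and upper-quartile factors to 0.14.

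Log2 changes turned sign for gnu with total counts (−0.02), germline-list factors (−0.06), without Control replicate 1 (−0.01) and without Nup358GLKD replicate 2 (−0.34), within a leave-one-out range of −0.34 to 0.36, and for CycB without Nup358GLKD replicate 1 (0.23), within a range of −0.77 to 0.23. With eggshell-list factors, against the median of 0.87, they turned for smg (0.27), CycB (0.68), CycB3 (0.01), tral (0.25), polo (0.23), Cdk1 (0.29) and endos (0.44), while cort (−2.19), plu (−1.34), twe (−1.18) and png (−1.16) stayed negative. For sra they turned with total counts (−0.04), germline-list factors (−0.06), no filter (−0.00), without Control replicate 1 (−0.07) and without Nup358GLKD replicate 2 (−0.24). The cause was not tested.

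Labels give the groups the same replicate numbers but no shared origin. Deviations of same-numbered libraries correlated at 0.231 over features, and with 2 pairs this does not establish pairing. With the replicate block 11 of the 73 genes passed as lower and the call of tral was lost (adjusted p = 0.0574), 0 of the 9 genes passed, and Nup358 did pass (adjusted p = 0.0289). The lowest count of a member in a library was 116, for plu in Nup358GLKD replicate 1.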
